A study of Mus musculus with 6 samples.

Results

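The genes described here encode the enzymes that clear superoxide and peroxides directly: catalase (Cat), the superoxide dismutases Sod1, Sod2 and Sod3, and the glutathione peroxidases Gpx1, Gpx2, Gpx3, Gpx4, Gpx7 and Gpx8. They were taken by symbol from the deposited count table, and all 10 of 10 were found among its 24786 gene symbols. RNA was sequenced from mouse intestinal organoids, cultured epithelial structures grown from gut stem cells, in 6 libraries. The tyramine group (3 libraries) was wild-type organoids dissociated into single cells over 10 min and given 100 µM tyramine for 16 h, and the control group (3 libraries) was wild-type organoids dissociated in the same way and given control medium without tyramine, with DMSO named in the labels. Tyramine is an amine that gut bacteria make from tyrosine. The replicates of a group carry only a number, with no mention of different animals or cultures, and a p-value here sets the group difference against library-to-library spread that may be purely technical. Whether the tyramine cultures also held DMSO is not stated.

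Superoxide dismutases convert superoxide, a by-product of respiration and of several oxidases, into hydrogen peroxide. Catalase, a haem enzyme of the peroxisome, splits hydrogen peroxide into water and oxygen, and glutathione peroxidases reduce hydrogen peroxide or lipid hydroperoxides with electrons from glutathione. In the gut, Gpx1 and Gpx2 are the main soluble glutathione peroxidases of the epithelium, Gpx2 being known for its expression in crypts, and Gpx4 reduces peroxidised phospholipids in membranes and so guards cells against ferroptosis.

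The glutathione peroxidases differ at the residue that carries out catalysis, which the coding sequence shows. In Gpx1, Gpx2, Gpx3 and Gpx4 the catalytic codon is an in-frame TGA, read as selenocysteine, whereas Gpx7 and Gpx8 have a cysteine codon there. The stretches of 27 bases below, from the GENCODE M21 transcripts and given 5′ to 3′, are shown because they divide the family into selenium-dependent and selenium-independent members, and capitals mark the catalytic codon.
Gpx1: aatgtcgcgtctctcTGAggcaccacg
Gpx2: aatgtggcgtcactcTGAggaacaact
Gpx3: aacgtagccagctacTGAggtctgaca
Gpx4: aacgtggcctcgcaaTGAggcaaaact
Gpx7: aacgtagctagcgaaTGTggcttcaca
Gpx8: aacgtggctagtgacTGCcgcttcaca

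In the longest coding sequence of each gene the catalytic codon was number 47 in Gpx1, 40 in Gpx2, 73 in Gpx3, 129 in Gpx4, 56 in Gpx7 and 79 in Gpx8. Each selenoprotein gene held 1 such in-frame TGA and the cysteine-type genes held 0. Among the selenium-dependent genes Gpx2 rose and Gpx1, Gpx3 and Gpx4 did not pass the test, with the values given below.

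Tyramine organoids had more Cat, Sod1 and Gpx2 RNA than controls, while the mitochondrial Sod2 and the selenoprotein genes Gpx1 and Gpx4 did not pass the test. Of the 10 genes, 8 had enough counts to be tested, and of these 3 rose, 0 fell and 5 missed the threshold of an adjusted p under 0.05 (edgeR's quasi-likelihood test with Benjamini-Hochberg adjustment over all 12139 tested genes). Among all tested genes 12.5% rose, 13.3% fell and 25.8% changed in either direction. At an unadjusted p under 0.05 in the edgeR test, 0 of the tested members were lower. Of the 12139 tested genes, 4468 passed that threshold in either direction, a count not split by direction here. Counted in either direction, the members that passed it were Cat, Sod1 and Gpx2. DESeq2 and limma-voom also called 0 members lower. With 8 tested members, these counts do not show that none fell. The median log2 fold change was -0.25 over the 8 tested members and 0.00 over all tested genes. The members' median includes Gpx3 (-2.51) and Gpx7 (-0.68), which were near the limit of detection. Both passed the filter on low counts mainly through control libraries, so the sign of this median does not describe the family. Levels are given in CPM (counts scaled to library totals times TMM factors), fold changes are tyramine minus control on the log2 scale, and ± gives the SD with n = 3 per group.

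Library totals were 29176428 to 32489563 counts with tyramine and 28316372 to 35035955 counts in controls. The tyramine libraries scattered more than the controls. Over genes, the chi-square per degree of freedom between library pairs was 98.5 and 93.2 for the pairs that held tyramine replicate 3 and 52.5 for the other tyramine pair, against 26.7 to 34.9 between controls. Of 14 general epithelial markers 3 rose and 5 fell, with summed levels of 18314 to 20639 CPM with tyramine and 20618 to 22174 CPM in controls, so epithelial markers were high in both groups. Enterocyte markers were lower: 18 of 20 fell and 0 rose, with summed levels of 4244 to 4953 CPM with tyramine and 24464 to 25653 CPM in controls. Of 12 proliferation markers 11 fell, with sums of 242 to 325 CPM with tyramine and 2820 to 3330 CPM in controls. Of 14 squamous markers 9 were tested, 4 rose (Krt5, Krt6a, Krt6b and Sprr1a) and Dsg3 fell, with sums of 545 to 1001 CPM with tyramine and 34.6 to 40.4 CPM in controls, and Sprr3 was at 0 in every library.

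**Figure D1:**
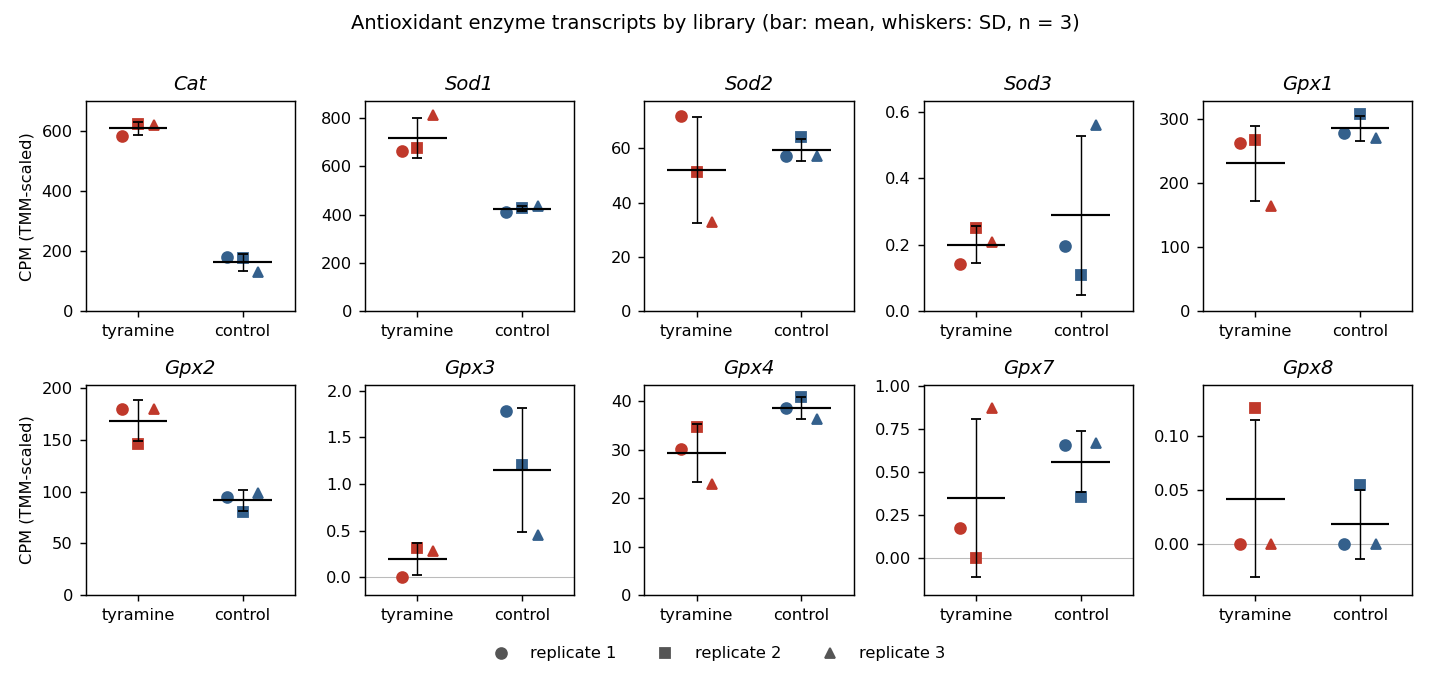
Level of each of the 10 genes in every library, in CPM on a linear axis of its own, with tyramine libraries at left and controls at right; bars are means and whiskers are SD (n = 3). Cat lies at 585 to 621 CPM in the tyramine libraries and at 131 to 181 CPM in controls, while Sod2, Gpx1 and Gpx4 spread more among tyramine libraries than among controls.

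Of the 3 members that passed the test, catalase changed most. Cat (chromosome 2, 103453849 to 103485160, minus strand, GRCm38; protein coding, 13 exons in its longest transcript) had 585, 621 and 620.0 CPM in tyramine replicates 1 to 3, against 181, 179 and 131 CPM in controls. All tyramine libraries lay above all controls, as for 20.9% of tested genes. The tyramine values differed by a factor of only 1.06 from lowest to highest, the control values by a factor of 1.39. Its mean was 609 ± 20.9 CPM with tyramine and 164 ± 28.4 CPM in controls, a 3.72-fold rise (log2 fold change 1.90, SE 0.13, edgeR adjusted p = 7.58e-06). Ranked by p, Cat was number 101 of the 12139 tested genes. Control replicate 3 was the lowest control, and without it the log2 fold change was 1.75.

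The genes whose profile over the 6 libraries was most like that of Cat were Gsr, glutathione reductase, and Prdx1, a peroxiredoxin. Likeness was measured as the root-mean-square distance between log2 CPM profiles, each centred on its own mean. It was 0.17 for both genes, against a median of 1.01 over 8658 candidate genes. Both were picked as the nearest, so lying under that median was certain. These 6 points share their libraries and their division into 2 groups, so the distance mainly reads the size of the group difference.

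Of the superoxide dismutases, the cytosolic copper-zinc enzyme rose, the mitochondrial manganese enzyme did not pass the test and the extracellular enzyme was barely detected. Sod1 (chromosome 16, 90220754 to 90226329, plus strand) had 662, 673 and 812 CPM in tyramine libraries, against 413, 427 and 435 CPM in controls. All tyramine libraries were above the controls, as for 20.9% of tested genes, and controls differed from each other by a factor of 1.05. Mean levels were 716 ± 83.9 CPM with tyramine and 425 ± 11.2 CPM in controls, a 1.68-fold rise (log2 fold change 0.75, SE 0.10, edgeR adjusted p = 0.000508). Tyramine replicate 3 was the highest library, and the log2 fold change without it was 0.65 and still past the threshold.

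Sod2, the manganese enzyme that removes superoxide inside mitochondria (chromosome 17, 13006846 to 13040063, plus strand), had 71.9, 51.3 and 33.0 CPM with tyramine, against 57.3, 64.2 and 57.1 CPM in controls. The tyramine libraries ranged from above to below every control, a 2.18-fold spread that compares with 1.12-fold among controls. The log2 fold change was -0.19 (SE 0.25, 95% interval -0.76 to 0.37, edgeR adjusted p = 0.642), and without tyramine replicate 3 its sign turned, to 0.05. The interval leaves changes of either sign possible at this depth and spread, so the data do not show that Sod2 was equal in the groups.

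Sod3, the extracellular form, had 4, 8 and 6 counts with tyramine, against 6, 4 and 16 counts in controls (chromosome 5, 52363791 to 52371418, plus strand). These groups overlapped, and the gene had too few counts to be tested. Counts of Sod1 were 9.20, 13.1 and 24.6 times those of Sod2 within tyramine libraries, against 7.20, 6.66 and 7.61 times within controls. That ratio was higher in every tyramine library than in any control, but Sod1 by itself already separated the groups.

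Of the glutathione peroxidases, Gpx2 alone passed the test, among the 5 that were tested. Gpx2, the gastrointestinal form (chromosome 12, 76792333 to 76795554, minus strand), had 179, 146 and 179.97 CPM in tyramine libraries, against 95.2, 79.9 and 98.9 CPM in controls. Every tyramine library was above the control range, as for 20.9% of tested genes. Gpx2 averaged 168 ± 19.7 CPM with tyramine and 91.3 ± 10.0 CPM in controls, a 1.84-fold rise (log2 fold change 0.88, SE 0.14, edgeR adjusted p = 0.00125). Its pseudogene Gpx2-ps1 (chromosome 7, 100264675 to 100265245) had 255, 103 and 32 counts with tyramine and 33, 110 and 142 counts in controls, where Gpx2 itself had 5077, 4626 and 5170 counts with tyramine and 2891, 2915 and 2818 counts in controls. With the pseudogene's counts added, a setting chosen after the data were seen, the log2 fold change of Gpx2 was 0.87.

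Gpx1, the widely expressed soluble enzyme (chromosome 9, 108338903 to 108340343, plus strand), had 263, 267 and 164 CPM with tyramine, against 278, 308 and 270.2 CPM in controls. All tyramine libraries lay below all controls, as for 23.6% of tested genes, but replicates 1 and 2 only narrowly, and replicate 3 stood well below the rest. The log2 fold change was -0.30 (SE 0.17, 95% interval -0.69 to 0.08, edgeR adjusted p = 0.240), and without tyramine replicate 3 it was -0.11. Gpx1 therefore did not pass the test, and its interval extends to a decrease of 0.69 on the log2 scale.

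Gpx4, which reduces phospholipid hydroperoxides (chromosome 10, 80047166 to 80056439, plus strand), had 30.2, 34.7 and 22.9 CPM with tyramine, against 38.6, 40.8 and 36.3 CPM in controls. Every tyramine library was below every control, as for 23.6% of tested genes, with replicate 3 the lowest. The log2 fold change was -0.40 (SE 0.21, 95% interval -0.87 to 0.08, edgeR adjusted p = 0.213), and -0.25 without tyramine replicate 3. The annotation lists a Gpx4 pseudogene that was not analysed here, and the sources used here do not give the counting rule, so the Gpx4 level is uncertain as far as reads could be shared between copies.

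Within single libraries the balance of Gpx2 to Gpx1 counts was 0.681, 0.545 and 1.10 with tyramine, against 0.342, 0.259 and 0.366 in controls. The balance of Cat to Gpx1 counts was 2.22, 2.33 and 3.78 with tyramine, against 0.651, 0.579 and 0.484 in controls. In both cases the groups did not overlap. This follows from the values above, since Cat and Gpx2 were higher and Gpx1 lower in every tyramine library, and it adds no separate result. Summed over the 6 glutathione peroxidases, levels were 430 ± 54.6 CPM with tyramine and 417 ± 12.2 CPM in controls, while the superoxide dismutases summed to 768 ± 67.3 CPM with tyramine and 485 ± 12.6 CPM in controls. These sums and ratios are descriptions with no test, since their members were chosen with results known.

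The other glutathione peroxidases were near the limit of detection. Gpx3, the secreted plasma form, had 0, 10 and 8 counts with tyramine, against 54, 44 and 13 counts in controls (chromosome 11, 54902453 to 54910377, plus strand). It passed the filter on low counts through the 3 control libraries and 0 tyramine libraries. Its log2 fold change of -2.51 had a 95% interval of -5.69 to 0.68 (edgeR adjusted p = 0.242). Gpx7, a cysteine-type enzyme of the endoplasmic reticulum (chromosome 4, 108400390 to 108406961, minus strand), had 5, 0 and 25 counts with tyramine, against 20, 13 and 19 counts in controls. Tyramine replicate 3 was above every control and the other tyramine libraries below them, so the groups overlapped (log2 fold change -0.68, 95% interval -3.98 to 2.62, edgeR adjusted p = 0.795, with -2.63 without tyramine replicate 3 and -0.09 without tyramine replicate 2). Gpx8, a membrane protein of the same compartment (chromosome 13, 113042753 to 113046410, minus strand), had 0, 4 and 0 counts with tyramine and 0, 2 and 0 counts in controls, too few to test. A count of 0 in a library allows up to 3 counts, 0.0944 to 0.106 CPM in the tyramine libraries and 0.0823 to 0.105 CPM in controls, which covers counting error only.

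**Figure D2:**
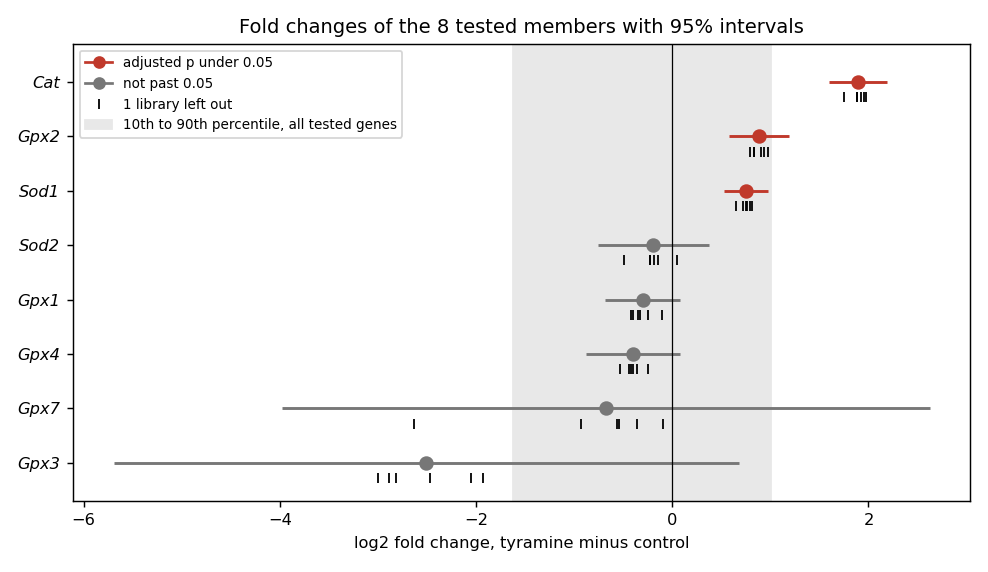
Log2 fold changes, tyramine minus control, of the 8 tested genes with their 95% intervals; ticks below each give the value with 1 library left out, and the grey band is the 10th to 90th percentile of all tested genes (-1.63 to 1.01). Cat, Gpx2 and Sod1 stay to the right of 0 with every library left out, whereas the intervals of Sod2, Gpx1, Gpx4, Gpx7 and Gpx3 include 0.

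The calls for Cat, Sod1 and Gpx2 held with each of the 6 libraries left out in turn. Over those and the other settings tried, the log2 fold change ran from 1.75 to 1.97 for Cat, from 0.65 to 0.81 for Sod1 and from 0.79 to 0.98 for Gpx2. By likeness of profile over the 6 libraries, the nearest genes to Sod1 were Rrp7a and Adipor1 (distances of 0.042 and 0.044) and those nearest to Gpx2 were Csnk1e and Rnf149 (0.049 and 0.054).

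Cell types other than epithelium were checked by their markers, since Gpx3 and Sod3 are secreted proteins that other cells also make. Among 15 fibroblast markers 10 were tested and 0 passed the threshold, with summed levels of 16.5 to 18.3 CPM with tyramine and 19.3 to 21.1 CPM in controls. Endothelial markers had too few counts for any to be tested, with sums of 0.418 to 3.27 CPM with tyramine and 0.713 to 2.46 CPM in controls. Of 14 immune markers 2 were tested, 0 passed and Cd3g, Cd79a and Tyrobp were among those at 0 in every library, with sums of 7.14 to 11.2 CPM with tyramine and 6.11 to 9.85 CPM in controls. The enterocyte and squamous markers given above moved between the groups together with Cat, Sod1 and Gpx2, and their part in these changes was not tested. In RNA from whole cultures, fewer cells of a type and less RNA per cell cannot be told apart.

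Per kilobase of annotated exon, Cat was the most abundant of the family with tyramine. Its level was 233 ± 7.98 CPM per kilobase with tyramine, followed by Sod1 at 180.3 ± 21.1, Gpx1 at 161 ± 40.5, Gpx2 at 52.2 ± 6.11, Gpx4 at 17.0 ± 3.43 and Sod2 at 5.2 ± 1.95. In controls the order was Gpx1 at 198 ± 13.8, Sod1 at 107 ± 2.82, Cat at 62.6 ± 10.9, Gpx2 at 28.3 ± 3.12, Gpx4 at 22.4 ± 1.32 and Sod2 at 5.95 ± 0.404 CPM per kilobase. Sod1 and Gpx1 overlapped in the tyramine libraries, and the other neighbours among these 6 genes did not overlap in either group. Gpx3, Gpx7, Sod3 and Gpx8 averaged under 1 CPM per kilobase in both groups.

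The order depends on the length used, since annotated exons of Sod1 cover 3970 bases but its longest coding transcript only 641. With the length of the longest coding transcript, Sod1 led with 1116 ± 131 CPM per kilobase with tyramine and 663 ± 17.5 in controls. Cat was then second with tyramine, at 233 ± 7.98 CPM per kilobase, and the fourth in controls, at 62.6 ± 10.9. Gpx1 stood at 216 ± 54.5 with tyramine and 266 ± 18.6 in controls, and Gpx2 at 158 ± 18.5 with tyramine and 85.6 ± 9.41 in controls. Cat, Gpx1 and Gpx2 were close in this order with tyramine: Gpx1 libraries overlapped those of both neighbours. Under either length the mean of Cat lay above that of Gpx1 with tyramine and below it in controls. By the longest transcript, however, Gpx1 was above Cat in tyramine replicates 1 and 2 (245 and 249 against 224 and 238 CPM per kilobase). Only in replicate 3 was it below (153 against 237), so that order of means rests on 1 library.

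**Figure D3:**
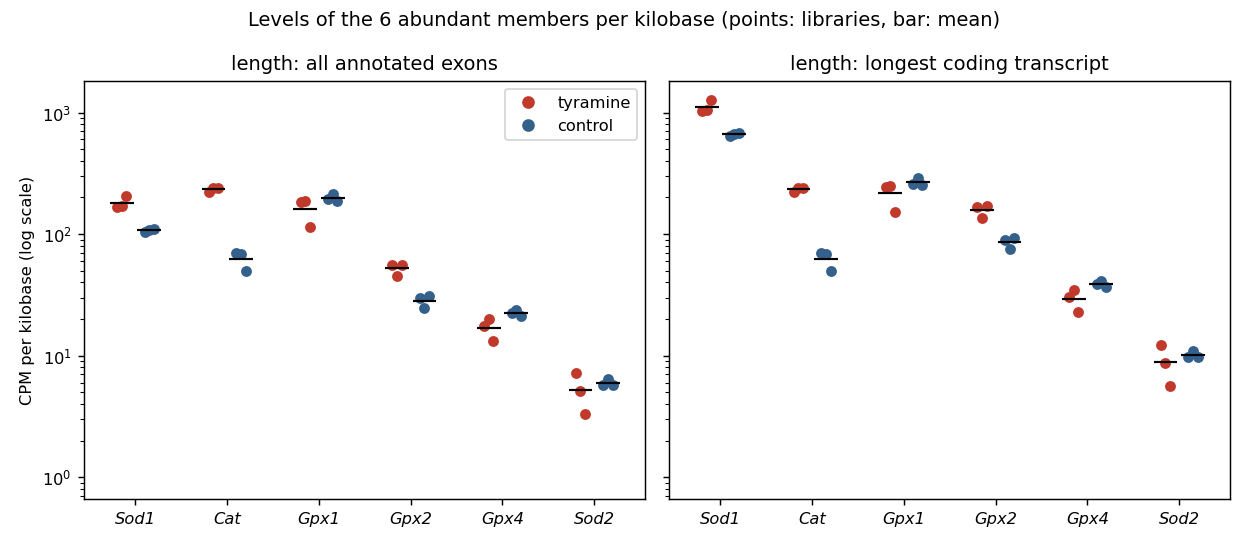
Levels of the 6 abundant genes in CPM per kilobase on a log axis, by all annotated exons (left) or the longest coding transcript (right); points are libraries and bars are means, tyramine left of control for each gene. The mean of Cat lies above that of Gpx1 with tyramine and below it in controls, and Sod1 is the highest gene in both groups in the right panel. There, the tyramine points of Gpx1 lie on both sides of those of Cat.

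Cat, Sod1 and Gpx2 rose together, so the 250 bases before each annotated start were read from RefSeq (GRCm38.p6). They are shown 5′ to 3′ along the gene's strand, and capitals mark matches to any of 4 short motifs on either strand: the core of the antioxidant response element bound by NRF2 (TGACNNNGC), the AP-1 site (TGACTCA), the GC box (GGGCGG) and the TATA box (TATAAA). The first pair can overlap, since an AP-1 site followed by GC also matches the response element core. The windows are chr2:103485154-103485403 on the minus strand for Cat, chr16:90220512-90220761 on the plus strand for Sod1 and chr12:76795555-76795804 on the minus strand for Gpx2.
Cat: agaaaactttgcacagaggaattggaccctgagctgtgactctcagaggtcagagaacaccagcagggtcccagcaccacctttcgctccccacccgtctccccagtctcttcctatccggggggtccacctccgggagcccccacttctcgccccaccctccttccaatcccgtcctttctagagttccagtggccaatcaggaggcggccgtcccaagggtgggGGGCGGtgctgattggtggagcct
Sod1: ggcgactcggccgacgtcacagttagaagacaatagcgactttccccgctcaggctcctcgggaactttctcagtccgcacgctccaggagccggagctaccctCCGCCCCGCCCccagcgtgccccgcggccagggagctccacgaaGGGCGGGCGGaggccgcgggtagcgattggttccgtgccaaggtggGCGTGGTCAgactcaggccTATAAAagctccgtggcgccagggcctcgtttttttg
Gpx2: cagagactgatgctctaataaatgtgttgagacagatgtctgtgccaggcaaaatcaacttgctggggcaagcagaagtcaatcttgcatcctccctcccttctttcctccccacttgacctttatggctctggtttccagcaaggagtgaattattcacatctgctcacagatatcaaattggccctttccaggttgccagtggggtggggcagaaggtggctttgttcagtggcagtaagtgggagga

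The Sod1 window held 1 antioxidant response element core, GCGTGGTCA on the reverse strand, that begins 56 bases before the start, beside a TATA box at 37 bases and 4 GC boxes that form overlapping pairs. The Cat window held 1 GC box at 24 bases and the Gpx2 window none of these motifs. GC boxes were also found for members that did not pass the test: 4 for Sod2, 1 each for Gpx3 and Gpx7, and some in windows of Gpx4. Among 32851 promoter windows of the same length, 10.2% held the antioxidant response element core, 4.46% the AP-1 site, 32.7% the GC box and 12.4% the TATA box. Promoter windows were found for 9 of the 10 genes, and Sod1 was the only gene of these with the antioxidant response element core in this window. A match is a description of letters and not a binding site, and elements elsewhere in these genes were not searched.

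Lists of related genes place these changes among the rest of peroxide and superoxide handling. The lists were compiled with earlier results of these data known, and some genes, Paox and Txnrd1 among them, stand in more than 1 of them. The enterocyte, proliferation and squamous markers given above differed between the same libraries, and their part in the changes of any of these lists was not tested. The peroxide-removing list had 15 tested genes besides the members, with 6 higher, 2 lower and 7 that missed the threshold (53.3% called, against 25.8% of all tested genes), and a median log2 fold change of 0.18. Gsr, which regenerates the glutathione that peroxidases consume, had 648, 721 and 659 CPM with tyramine, against 163, 159 and 155 CPM in controls (4.25-fold). Srxn1, sulfiredoxin, which repairs overoxidised peroxiredoxins, rose 8.18-fold, to 1957 ± 412 CPM with tyramine against 239 ± 18.9 CPM in controls. Prdx1 and Prdx6, peroxiredoxins that also remove hydrogen peroxide, rose 3.90-fold and 3.58-fold (edgeR adjusted p = 5.37e-07 and 1.54e-06). The genes that fell were Glrx, 4.92-fold, and another peroxiredoxin, Prdx2, 2.37-fold (edgeR adjusted p = 0.00246 and 0.0405). Prdx3, Prdx4 and Prdx5 did not pass the threshold. Leaving out control replicate 1, 2 or 3 left 1 lower gene each time.

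A list of genes for selenium supply, selenium binding and selenocysteine insertion, which also holds Selenbp1, Selenbp2 and the selenoprotein receptor gene Lrp8, was called at a share near that of all tested genes. Of 18 tested, 1 rose, 3 fell and 14 missed the threshold (22.2% called, against 25.8% of all tested genes, with a median log2 fold change of -0.09). Scly, which recovers selenium from selenocysteine, fell 3.18-fold, with 9.36, 4.53 and 8.25 CPM with tyramine against 23.7, 29.5 and 17.3 CPM in controls (edgeR adjusted p = 0.00825). Sepsecs, which makes selenocysteine on its transfer RNA, and Selenbp1, a selenium-binding protein, fell with edgeR adjusted p = 0.0466 and 0.0346, and the serine transfer RNA enzyme gene Sars rose 1.35-fold. Leaving out control replicate 1, 2 or 3 gave 1, 0 and 1 lower genes, and Sars was not past the threshold without tyramine replicate 2 or control replicate 1 or 2. Sepsecs missed the threshold without any 1 library except tyramine replicate 1, with no filter on low counts, without robust estimation and with a fold minimum of 1.2, and Selenbp1 missed it without tyramine replicate 1 or any 1 control. Secisbp2, Ccs, Pex5 and Acsl4 are named here for their known roles, after their values were seen. Secisbp2, whose product binds the selenocysteine insertion element, was at 54.9 ± 8.39 CPM with tyramine and 45.5 ± 5.84 CPM in controls (edgeR adjusted p = 0.341).

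Other selenoprotein genes moved both ways, with 5 rising, 1 falling and 9 not past the threshold among 15 tested. That is 40% called, against 25.8% of all tested genes, with a median log2 fold change of -0.20. Txnrd1, cytosolic thioredoxin reductase, rose 3.26-fold, to 2038 ± 227 CPM with tyramine against 626 ± 31.0 CPM in controls. Selenop, which carries selenium between cells, fell 4.26-fold, with 31.2, 26.3 and 35.2 CPM with tyramine against 136, 134 and 125 CPM in controls (edgeR adjusted p = 1.01e-05). Selenok, an endoplasmic reticulum selenoprotein, rose 1.70-fold, and Selenos, of the same compartment, rose 1.28-fold. The number that rose was 3 without tyramine replicate 1, 2 or 3 and 2 without control replicate 1, 2 or 3, and the number that fell was 2 without tyramine replicate 1 and 4 without tyramine replicate 3. Selenos lost its call when any library but tyramine replicate 2 was left out, and also with scaling by library totals alone, with no filter on low counts and with a fold minimum of 1.2.

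In a list compiled around copper, zinc and manganese for the dismutases, which also holds metal-binding proteins and mitochondrial carriers, more genes fell than rose. The count does not show that metal supply to the dismutases fell. Of 20 tested, 1 rose, 7 fell and 12 missed the threshold, and 4 fell without control replicate 2. The share called was 40%, against 25.8% of all tested genes, and the median log2 fold change was -0.68. In the same libraries 18 of 20 enterocyte markers fell, and their part in these falls was not tested. The metallothionein genes Mt1 and Mt2, whose products bind zinc and copper, fell 4.10-fold and 4.95-fold, Mt2 to 51.2 ± 12.7 CPM with tyramine against 254 ± 31.5 CPM in controls. Slc39a14, a zinc, manganese and iron importer, fell 2.89-fold (edgeR adjusted p = 0.000352), and Slc25a39, a mitochondrial carrier, fell 2.18-fold. Ccs, the copper chaperone of Sod1, had 8.93 ± 4.86 CPM with tyramine and 16.9 ± 0.277 CPM in controls and was not past the threshold (edgeR adjusted p = 0.148).

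Among oxidases that make superoxide or hydrogen peroxide, 19 were tested, of which 4 rose, 6 fell and 9 missed the threshold. The share called was 52.6%, against 25.8% of all tested genes, and the median log2 fold change was -0.65. Aoc1 and Loxl3, counted among the falls, passed the filter on low counts through control libraries alone. Aoc1 averaged 0.0232 CPM with tyramine against 1.85 CPM in controls, and Loxl3 0.0914 CPM against 2.43 CPM. Such genes could enter the test only with more counts in controls. Xdh, xanthine oxidoreductase, fell 2.87-fold, with 113, 108 and 84.6 CPM with tyramine against 282, 322 and 272 CPM in controls. Paox, a polyamine oxidase of the peroxisome, fell 2.47-fold. Ero1l and Qsox1, which form disulphides and release hydrogen peroxide in the secretory pathway, rose 3.54-fold and 2.33-fold (edgeR adjusted p = 3.9e-05 and 0.0011). The number that rose was 2 without tyramine replicate 2 or control replicate 1 or 2.

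Catalase rose, whereas in a list compiled around other peroxisomal genes more fell than rose. The list covers peroxisome assembly, import and matrix enzymes and also holds membrane proteins. Of its 53 tested genes, 3 rose, 15 fell and 35 missed the threshold (median log2 fold change -0.50). The share called was 34%, against 25.8% of all tested genes, of which 12.5% rose and 13.3% fell. Phyh, which starts breakdown of branched fatty acids, fell 4.60-fold, with 38.5, 31.5 and 28.9 CPM with tyramine against 158, 157 and 140.3 CPM in controls. Abcd3, a transporter of the peroxisomal membrane, fell 2.62-fold, to 231 ± 50.6 CPM with tyramine against 604 ± 26.5 CPM in controls. Hsd17b4 and Ehhadh, enzymes of peroxisomal fatty acid oxidation, fell 2.39-fold and 3.39-fold (edgeR adjusted p = 0.000209 and 0.000245). Pex5, the import receptor for matrix proteins, had 18.9 ± 9.19 CPM with tyramine and 26.7 ± 2.59 CPM in controls (edgeR adjusted p = 0.348). The number that rose was 1 without control replicate 2 or 3. The enterocyte markers that fell with these genes are given above, and their part in the fall was not tested.

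Genes of lipid peroxidation and its control, the setting in which Gpx4 acts, moved both ways. Of 26 tested, 9 rose, 4 fell and 13 missed the threshold (50% called, against 25.8% of all tested genes, median log2 fold change -0.06). Slc7a11, the cystine importer that feeds glutathione synthesis, rose 9.77-fold, to 951 ± 142 CPM with tyramine against 97.4 ± 6.01 CPM in controls. Fth1, the heavy chain of the iron store ferritin, rose 2.52-fold, and Hmox1, heme oxygenase 1, rose 53.7-fold (edgeR adjusted p = 2.52e-06 and 2.22e-07). Scd1, which makes the monounsaturated fatty acids that resist peroxidation, fell 8.49-fold, to 29.4 ± 2.68 CPM with tyramine against 249 ± 9.51 CPM in controls. Acsl4, which loads polyunsaturated fatty acids into phospholipids, was also lower, at 7.91 ± 1.41 CPM with tyramine and 17.6 ± 0.711 CPM in controls (edgeR adjusted p = 0.022).

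**Figure D4:**
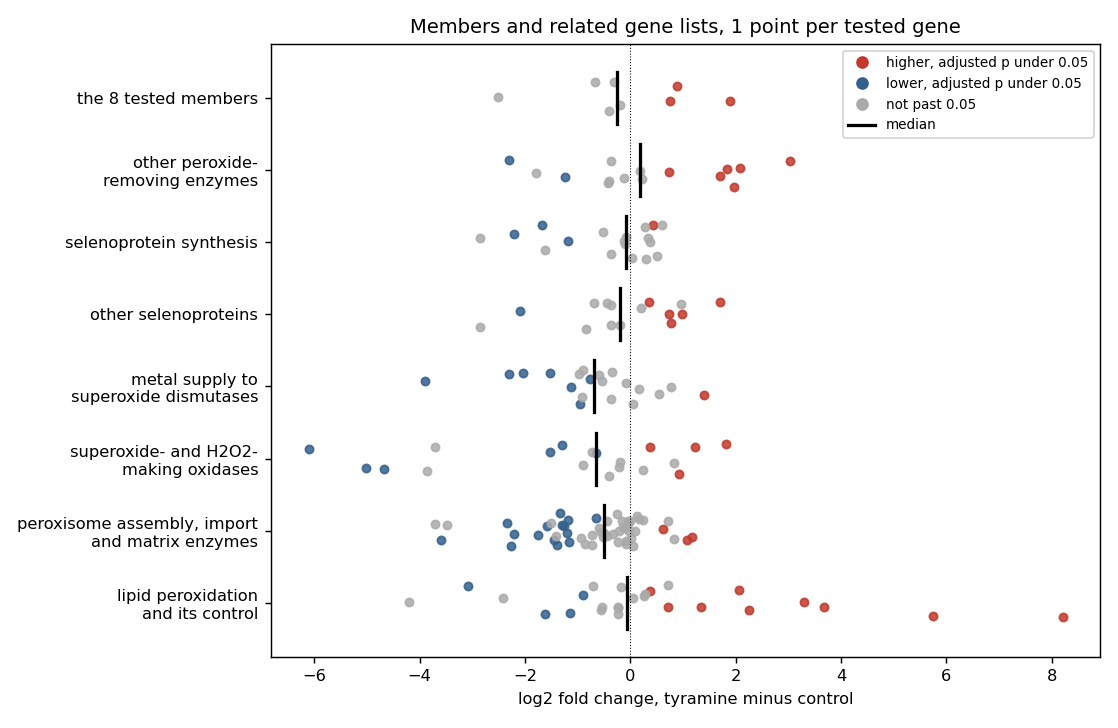
Log2 fold changes, tyramine minus control, of the 8 tested members and of 7 related gene lists, 1 point per tested gene; red and blue points passed an adjusted p under 0.05 and black bars are medians. The members' 3 red points lie between 0.75 and 1.90, and the list of peroxisomal genes has 15 blue points against 3 red.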

How the data were processed

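The labels' protocols describe stranded mRNA libraries with unique molecular identifiers made from total RNA, and the submitters' processing notes name STAR 2.5.3a and the mm10 build. The deposited table holds whole-number counts per gene symbol, made by the authors; the sources used here do not give the counting program, annotation, strand setting or use of the identifiers. Of counts from 1 to 8, 72.6% to 78.7% per library were even, so a count may not be 1 molecule.

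Genes were filtered with edgeR 4.0.16 (minimum count 10, minimum total 15), scaled by TMM and tested with its robust quasi-likelihood test in R 4.3.3, 3 tyramine against 3 control libraries, with Benjamini-Hochberg adjustment and a threshold of 0.05. The script was tested on simulated counts. DESeq2 1.42.0, limma 3.58.1 (voom), other scalings and filters, a fold minimum, a replicate block and leaving out each library were alternatives. Positions, lengths and coding sequences came from GENCODE M21 and promoters from RefSeq. The text names all 10 members, up to 4 called genes with the smallest p per related list, and the 2 genes nearest to a member in profile. Cell type markers and the relatives Gpx2-ps1, Gpx5 and Gpx6 are named besides. Gpx2-ps1, Gpx5, Gpx6, Secisbp2, Ccs, Pex5, Acsl4, Glrx, Prdx2, Aoc1 and Loxl3 were chosen after their values were seen. The members and lists were chosen with earlier results of these data known.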

Additional observations from a re-analysis of the deposited data

How the results depend on the processing

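The calls of Cat, Sod1 and Gpx2, and the absence of calls among the other tested members, held in the 16 alternatives, of which the filter at 1 CPM and halved counts gave no value for Gpx3 and Gpx7. Sod2 reversed to 0.050 without tyramine replicate 3 and ranged from -0.50 to 0.050 with 1 library left out. The cause was not tested. Over all genes, 934 to 1510 were higher and 1035 to 1797 lower with 1 library left out. The low ends came without control replicates: 960 and 934 higher without control replicates 1 and 2, and 1035, 1043 and 1055 lower without control replicates 1, 2 and 3. With 1 library left out, the peroxide-removing list had 1 to 2 lower and the selenium supply and insertion list 0 to 1 higher and 0 to 4 lower. Other selenoproteins then had 2 to 3 higher and 1 to 4 lower, and the metal list 4 to 9 lower. The oxidases had 2 to 4 higher and the peroxisome list 1 to 3 higher. A fold minimum of 1.2 gave 1 lower peroxide-removing gene, 0 higher genes of the selenium supply and insertion list, 2 higher other selenoproteins and 2 higher oxidases. Library totals alone gave 5 lower genes of the selenium list and 2 higher and 2 lower other selenoproteins. Limma-voom gave 5 lower genes of the selenium list, 4 lower other selenoproteins and 7 lower lipid peroxidation genes, and DESeq2 also 7. With no filter 2 other selenoproteins were higher, and with halved counts, chosen after seeing the data, 2 were lower. With the replicate block 2 other selenoproteins were higher, and Cat, Sod1 and Gpx2 had log2 fold changes of 1.91, 0.75 and 0.88, while Selenos and Sepsecs lost their calls (edgeR adjusted p = 0.0664 and 0.0859). Same-numbered libraries did not deviate together over the tested genes (r = -0.02, -0.01 and 0.01). With 3 libraries per group this cannot show whether they share an animal, culture or batch, which the labels do not say. By the longest transcript, 2 members in tyramine libraries and 4 in controls changed rank. Depth limits Sod3, Gpx3, Gpx7 and Gpx8.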

Other observations

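Among markers of goblet, enteroendocrine and Paneth cells, all that passed the threshold were lower, where 13.3% of all tested genes fell. Of 9 goblet markers 7 were tested and 4 fell, with sums of 59.7 to 71.7 CPM with tyramine and 121 to 148 CPM in controls. Of 13 enteroendocrine markers 8 were tested and 4 fell, with sums of 349 to 557 CPM with tyramine and 1121 to 1160 CPM in controls, and Neurog3 was at 0 in every library. Of 10 Paneth markers 5 were tested and 1 fell, with sums of 19.1 to 44.1 CPM with tyramine and 38.4 to 76.4 CPM in controls. These sums overlap, and Ang4, the Paneth marker that fell, had 0 counts in every tyramine library and 61, 17 and 20 counts in controls. Ang4, and Tph1 of the enteroendocrine markers, passed the filter on low counts through control libraries alone. Of 9 tuft markers 2 were tested and 0 passed by edgeR, with sums of 2.82 to 6.02 CPM with tyramine and 1.68 to 3.29 CPM in controls. Gpx5 and Gpx6, glutathione peroxidases known from the epididymis and olfactory tissue, had 0 counts in all 6 libraries. The genes nearest in profile to Gpx1 were Iars2 and Rab1b (distances of 0.057 and 0.059), and those nearest to Gpx4 were Hp1bp3 and Nme2 (0.041 and 0.058). Those nearest to Sod2 were B3gnt3 and Pelp1 (0.077 and 0.092), to Gpx3 Recql4 and Xk (0.50 and 0.58), and to Gpx7 Npl and Casp4 (0.38 and 0.43).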
